A study of Mus musculus with 12 samples.

Results

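Naive CD4+ conventional T cells (Tcon) of mice given a stapled FOXP3 peptide were compared with Tcon of mice given vehicle, across all genes of the deposited Tcon table. The comparison used 6 of the 12 libraries of the series, chosen by their labelled cell type. Tcon from spleen after SAH were libraries 05 and 06, and those from lymph node after SAH were 02 and 03, while vehicle gave 1 library from spleen (04) and 1 from lymph node (01). The peptide, SAH-FOXP3(229-259)C, is called SAH here. Every mouse was of the B6.Cg-Foxp3tm2Tch/J strain (FOXP3-IRES-GFP), whose Foxp3 locus also encodes GFP, and was injected intraperitoneally once a day on 2 days, with 25 mg/kg of SAH or with vehicle, which the titles name as DMSO. The other 6 libraries came from regulatory T cells (Treg; CD4+CD25+FOXP3+) with the same organs, treatments and library numbers, and enter only the comparison of cell types. Nothing in the labels tells whether libraries came from separate mice or whether a spleen and a lymph node library share a mouse. A p-value here therefore reflects only the scatter of these libraries, and that scatter may be technical.

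FOXP3 is a forkhead transcription factor that defines Treg, and naive conventional T cells largely lack it. Stapled peptides hold a helix in shape with a chemical brace so that it can compete with the natural helix of a protein for its partner. T cells answer proteotoxic or nutrient stress through HSF1, which induces heat shock proteins, and through the integrated stress response, in which ATF4 raises amino acid transporters and synthesis enzymes. Resting T cells also oxidise fatty acids, which CPT1A and the carnitine carrier SLC25A20 bring into mitochondria, and turn to glucose uptake and lipid synthesis when they are activated.

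Values are in the unit that the file headers call CPM, and each list of values below runs spleen 05 and 06, then lymph node 02 and 03 for SAH, and spleen 04, then lymph node 01 for vehicle. The labelled cell type was checked against its markers. Cd4 was at 947, 1005, 1018 and 967 CPM in SAH, against 1010 and 1002 CPM in vehicle, and Cd3e, of the T cell receptor complex, at 324, 324, 357 and 324 CPM in SAH, against 343 and 344 CPM in vehicle. All 19 naive T cell genes of the list were measured, with Lef1 at 374 CPM or more in every library, and summed to 12830 to 13670 CPM. Genes of other T cell states were measured too: 29 of 36 memory and effector genes (959.6 to 1688 CPM in sum) and 21 of 29 Treg signature genes (535 to 653 CPM). Of other cell types, 2 of 15 B cell, 3 of 10 plasma cell, 6 of 22 myeloid and dendritic, 11 of 17 CD8 and natural killer and 4 of 16 red cell and platelet markers were among the genes tested, and 0 of these 26 were called (limma; 6 had an unadjusted p below 0.05). Their medians were -0.09 (B cell), -0.10 (plasma cell), 0.13 (myeloid), -0.16 (CD8 and natural killer) and 0.30 (red cell and platelet) on the log2 scale. Without spleen SAH library 06 the red cell and platelet median was -0.075, with 1 of 4 positive. For the CD8 and natural killer markers, leaving out lymph node vehicle library 01 gave a median of -0.42 with 1 marker called lower, and leaving out spleen vehicle library 04 one of 0.05 with none called. Without lymph node SAH library 02, 1 of these markers was also called lower. Cd79a, of the B cell receptor, was at 2.13, 2.36, 1.33 and 1.43 CPM in SAH, against 2.95 and 2.00 CPM in vehicle. Summed red cell and platelet markers reached 85.95 CPM in spleen SAH library 06, against 8.83 to 18.3 CPM in the other 5 libraries. The steps between the lowest values put the depth at 36442420 to 48888678 reads per library, and correlations between libraries over all genes were 0.987 to 0.996.

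Among the genes that rose in Tcon after SAH were the heat shock protein genes Hspa1a and Hspa1b, the early transcription factor gene Fosl2, the amino acid transporter gene Slc7a5 and the fatty acid synthase gene Fasn. Among those that fell were the fatty acid import genes Cpt1a and Slc25a20 and the GTPase gene Gimap7. Of 9886 genes, 103 passed the test, or 1.04%, with 87 higher (0.88%) and 16 lower (0.162%). A positive log2 change, called or not, was measured for 48.9% of all genes. An unadjusted p below 0.05 (limma) was reached by 1391 of the 9886 genes, 780 higher and 611 lower. The counts of each list, above and below, stand against these figures. In bulk RNA, fewer cells of a type and less RNA per cell cannot be told apart. Most changes were small. The median was 1.34-fold among higher and 1.34-fold among lower genes, and 24 of the 103 changed by more than 1.5-fold (19 higher and 5 lower). All 5 genes past 2-fold were higher: Hspa1a, Hspa1b, Hspa1l, Drc1 and Vegfa. All 4 SAH libraries lay above both vehicle libraries for 79 of the 87 higher genes, and below both for 14 of the 16 lower ones, where 10% and 9.53% of all genes did so. Exceptions were Scd2, Abca1, Abcg1, Nr4a1, Cdkn1a, Tnfrsf1b and Siah2 among higher genes, and Art2b and Adk among lower ones. In these too, as in all 103, each of the 4 SAH libraries lay on the called side of the vehicle library of its own organ, which 16.6% (above) and 16.7% (below) of all genes did. The genes were called on these same libraries, which favours such separation, so it is a description and no separate support.

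Each organ had 1 vehicle library, so a fit without a vehicle library gives the change in the other organ alone. The number of called genes rested on single libraries. It was 15 without spleen vehicle library 04, 30 without lymph node vehicle library 01, 66 without spleen SAH library 05, 32 without spleen SAH library 06, 226 without lymph node SAH library 02 and 11 without lymph node SAH library 03. Hspa1a, Hspa1b, Vegfa, Fosl2, Nr4a2, Slc7a5, Cpt1a and Gimap7 passed with each library left out, Csrnp2 passed in 5 of 6, and the other 94 lost their call in at least 2, while all 103 kept their direction in every such fit. Most of the 103 passed in only 1 or 2 of the 6 fits, which also limits the calls of single genes named below. Those that passed in 1 fit did so only without lymph node SAH library 02. Directions had to hold in these fits, since each SAH library lay on the called side of the vehicle library of its organ. The column totals of both vehicle libraries (986509 and 971928) were below those of the 4 SAH libraries (1001657 to 1021433). With each library brought to the same total, the median of all genes stood at -0.05 on the log2 scale in place of 0.00, and 76 genes passed, 48 higher and 28 lower. The heat map of called genes shows each SAH library against the vehicle library of its organ.

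**Figure D1:**
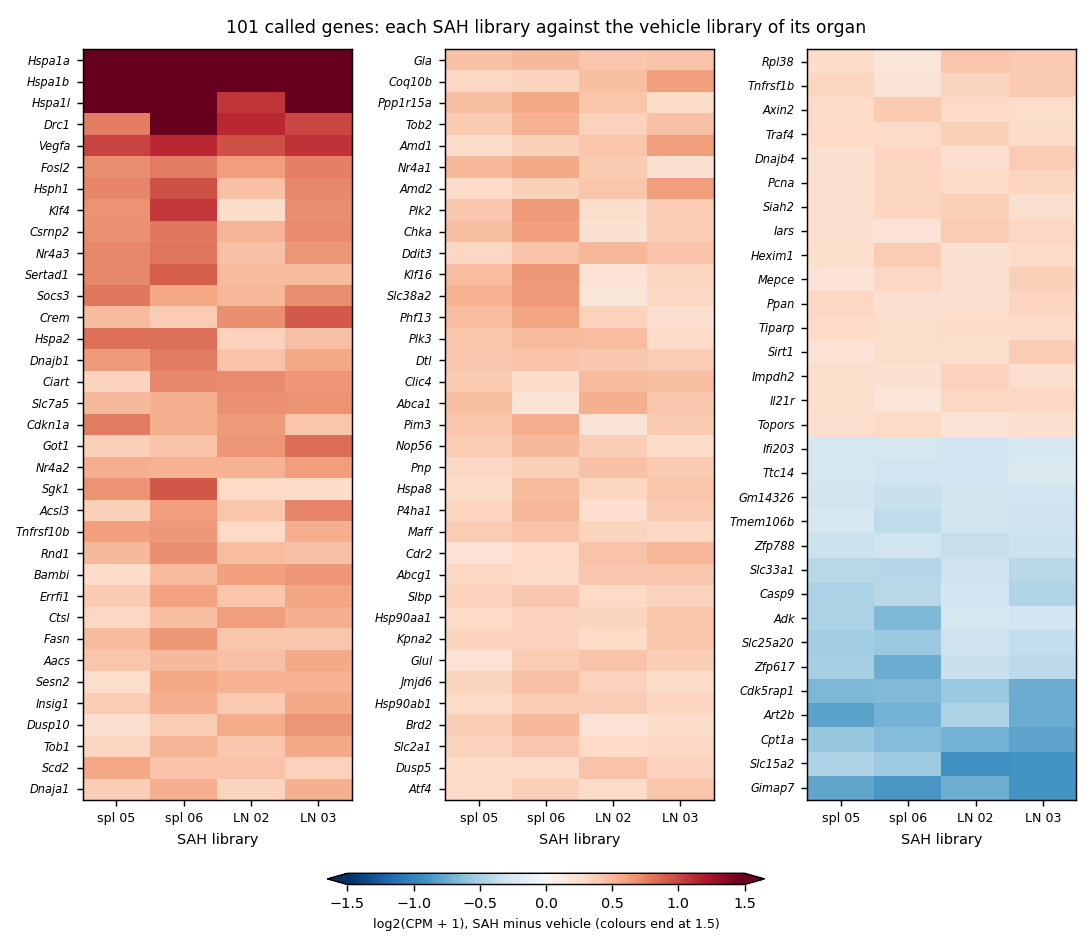
Heat map of 101 of the 103 called genes (1 per line, from the highest to the lowest log2 change) in 4 SAH libraries (columns), with colour giving log2(CPM + 1) in the SAH library minus that in the vehicle library of the same organ. The 86 higher genes shown are red and the 15 lower genes blue in each of the 4 columns, and the HSP70 genes at the top stand out by their depth of colour.

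The inducible HSP70 genes changed most. Hspa1a (chromosome 17, 34969190 to 34972156, minus strand, mm10), an inducible HSP70 chaperone, was at 267.5, 306.5, 86.1 and 165 CPM in SAH, against 40.2 and 29.3 CPM in vehicle. It rose 5.27-fold (95% interval 3.70 to 7.50, adjusted p = 0.0017). Its neighbour Hspa1b (chromosome 17, 34956436 to 34959238, minus strand) was at 327, 369, 112 and 199.6 CPM in SAH, against 49.95 and 37.5 CPM in vehicle. It rose 5.17-fold (95% interval 3.72 to 7.185, adjusted p = 0.00113). Both genes were highest in the spleen SAH libraries and lowest in the vehicle libraries, with lymph node SAH library 02 nearest to vehicle and no overlap between SAH and vehicle. Hspa1l, an HSP70 gene that lies beside Hspa1a on the opposite strand (chromosome 17, 34972703 to 34979285, plus strand), was at 30.8, 36.1, 11.8 and 20.4 CPM in SAH, against 5.6 and 5.09 CPM in vehicle. It rose 3.76-fold (95% interval 2.67 to 5.29, adjusted p = 0.00496). The Hspa1a and Hspa1b transcripts share many stretches: of all 50-base stretches, 58.8% of those in the Hspa1a transcript (GENCODE) were found in that of Hspa1b. How reads that match both copies were counted is not given in the sources used here, so the split of reads between the pair is uncertain. The 250 bases before the start of each gene are also nearly the same, with 247 shared.

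Heat shock factors bind inverted repeats of GAA, and the shortest such pairs are GAANNTTC and TTCNNGAA, each of which reads the same on both strands. The stretches of promoter below, from RefSeq (GRCm38.p6, which is mm10), end at the base before a RefSeq transcript start, with a match in capitals. They show chaperone genes picked because they rose and hold a pair. By the GENCODE gene positions used here, the Dnaja1 stretch and the Hsph1 match lie inside the gene.
Hspa1a (GRCm38.p6 chr17:34972157-34972276, minus strand): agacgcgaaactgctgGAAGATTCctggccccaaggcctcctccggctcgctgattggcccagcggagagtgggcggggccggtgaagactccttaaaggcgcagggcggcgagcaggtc
Hspa1b (GRCm38.p6 chr17:34959239-34959358, minus strand): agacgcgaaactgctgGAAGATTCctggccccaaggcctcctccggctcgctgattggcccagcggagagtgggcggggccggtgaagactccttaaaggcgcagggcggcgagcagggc
Hsph1 (GRCm38.p6 chr5:149636337-149636456, minus strand): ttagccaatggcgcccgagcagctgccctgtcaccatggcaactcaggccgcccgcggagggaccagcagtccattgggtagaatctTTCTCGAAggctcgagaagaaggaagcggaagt
Dnaja1 (GRCm38.p6 chr4:40722329-40722467, plus strand): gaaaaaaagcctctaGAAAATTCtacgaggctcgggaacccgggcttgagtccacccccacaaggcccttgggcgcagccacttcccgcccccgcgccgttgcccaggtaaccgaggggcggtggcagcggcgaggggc
In windows of 250 bases before to 50 after the start, one or other pair was found in 48.0% of the HSF1 chaperone list (12 of 25 with a window). It was in 23.3% of all higher genes (17 of 73), in 7.14% of lower genes (1 of 14) and in 13.9% of 7661 tested genes with a window. Of the called genes of the HSF1 list not shown above, Dnajb4 held a pair. None was recorded for Hspa1l, Dnajb1, Hspa8, Hsp90aa1, Hsp90ab1, Chka or P4ha1, some of which may lack a window. The pairs can overlap, and the HSF1 list was drawn up from genes known to be driven by that factor, so these shares are a description only.

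Of 29 measured genes of the HSF1 chaperone list, 12 rose, 0 fell and 17 did not pass, and all 29 had a positive log2 change (median 0.25). Of all genes tested, 0.88% rose, 48.9% had a positive change and the median was 0.00. Without spleen vehicle library 04 or lymph node SAH library 03, 2 of them passed, and without any of the others 5 to 14. All 29 stayed positive in each of these fits, with equal totals and after quantile normalization. Hsph1, an HSP110 nucleotide exchange factor (chromosome 5, 149614287 to 149636376, minus strand), was at 291, 341.5, 193 and 235 CPM in SAH, against 176 and 142 CPM in vehicle. It rose 1.64-fold (95% interval 1.41 to 1.89, adjusted p = 0.0107). Dnajb1, an HSP40 co-chaperone, was at 302, 334.5, 229.7 and 254 CPM in SAH, against 194 and 170.1 CPM in vehicle. It rose 1.52-fold (95% interval 1.37 to 1.70, adjusted p = 0.00496). All SAH libraries were above both vehicle libraries for Hsph1 and Dnajb1, and the spleen SAH libraries were the highest. The HSP40 genes Dnaja1 and Dnajb4 rose 1.36-fold and 1.23-fold. More abundant chaperone genes changed less. Hspa8 (HSC70) was at 2227, 2553, 2046 and 2189 CPM in SAH, against 1838 and 1638 CPM in vehicle, a rise of 1.29-fold. Hsp90aa1 and Hsp90ab1, the cytosolic HSP90 genes, rose 1.27-fold and 1.27-fold. Chka, choline kinase alpha, and P4ha1, a prolyl hydroxylase subunit, are counted in the list but are not chaperones, and rose 1.34-fold and 1.29-fold. Outside the list, Hspa2, another HSP70 gene, was at 8.87, 8.86, 7.42 and 8.04 CPM in SAH, against 4.56 and 5.65 CPM in vehicle. It rose 1.525-fold (95% interval 1.285 to 1.81, adjusted p = 0.0401). The mitochondrial chaperone Hspd1 (log2 change 0.25, adjusted p = 0.051) and the co-chaperone Bag3 (log2 change 0.21, adjusted p = 0.16) did not pass.

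**Figure D2:**
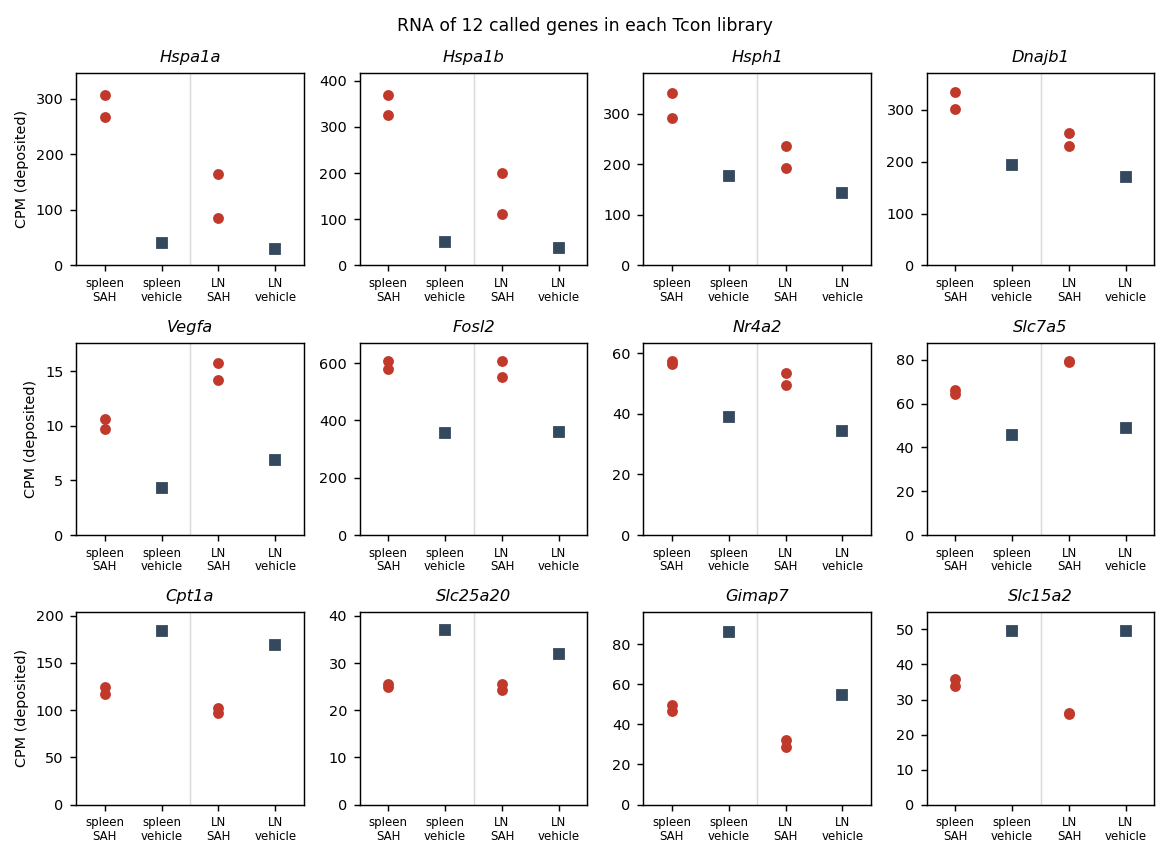
CPM of 12 called genes in each Tcon library, with 4 SAH libraries as circles (2 each from spleen and lymph node, LN) and 2 vehicle libraries as squares, each vertical axis starting at 0. Hspa1a runs from 86.1 to 306.5 CPM in SAH against 40.2 and 29.3 CPM in vehicle, while Cpt1a lies at 96.9 to 124 CPM in SAH against 184 and 169 CPM in vehicle.

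Genes of the integrated stress response were also among those that rose, and Slc7a5 led them. Of 22 measured genes of that list, 6 rose, 0 fell and 16 did not pass, and 21 had a positive change (median 0.28), against 48.9% of all genes. Slc7a5, the large neutral amino acid transporter chain of LAT1 (chromosome 8, 121881150 to 121907694, minus strand), was at 64.5, 66.4, 79.6 and 79.0 CPM in SAH, against 45.6 and 49.02 CPM in vehicle. It rose 1.51-fold (95% interval 1.38 to 1.66, adjusted p = 0.00216). The 2 spleen SAH libraries were close to each other, as were the 2 from lymph node, and the lowest of the 4 was well above the higher vehicle value. Atf4, the transcription factor of the response, was at 388, 406, 349 and 382 CPM in SAH, against 317 and 286 CPM in vehicle. It rose 1.26-fold (95% interval 1.16 to 1.38, adjusted p = 0.0231). Ddit3 (CHOP) and Ppp1r15a (GADD34, which restarts translation) rose 1.33-fold and 1.35-fold, Sesn2, a leucine-sensing inhibitor of mTORC1, rose 1.39-fold, and Slc38a2, a neutral amino acid transporter, rose 1.33-fold. Ddit4, an mTORC1 inhibitor (log2 change 0.62, adjusted p = 0.0522), and Slc3a2, the partner chain of Slc7a5 (log2 change 0.29, adjusted p = 0.0599), missed the threshold. Single called genes outside the list were Got1, the cytosolic aspartate aminotransferase, 1.49-fold, Glul, glutamine synthetase, 1.27-fold, and Iars, the isoleucine tRNA ligase, 1.22-fold. Without spleen vehicle library 04, spleen SAH library 06 or lymph node SAH library 03, 1 gene of the list passed in each case, and without the others 3 to 8.

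In the list of the unfolded protein response of the endoplasmic reticulum, 0 of 22 genes passed (limma; 8 had an unadjusted p below 0.05, and 3 rose without lymph node SAH library 02). Their median was 0.05, with Herpud1, of the degradation machinery, at a log2 change of 0.36 (adjusted p = 0.0524) and the chaperone Calr (calreticulin) at 0.18 (adjusted p = 0.131). Atf4, Ddit3 and Ppp1r15a, which also act in that response, were counted only in the integrated stress list, so the lists do not separate the responses. Of 12 NRF2 oxidative stress genes 0 passed (4 at an unadjusted p below 0.05, median 0.08), though 2 rose without lymph node SAH library 02. Nfe2l2, which encodes NRF2, had a log2 change of 0.36 (adjusted p = 0.0664). Of 15 genes of the p53 and DNA damage list 1 rose, the cell cycle inhibitor Cdkn1a (list median 0.07). Cdkn1a was at 12.8, 10.6, 8.09 and 6.84 CPM in SAH, against 7.02 and 4.85 CPM in vehicle, a rise of 1.51-fold that passed with 1 of the 6 libraries left out (lymph node SAH library 02) and not with any other.

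Early transcription factors, many of which T cells induce after receptor signals, formed the next group. Of 26 measured genes of the list, 8 rose, 0 fell and 18 did not pass, and 25 had a positive change (median 0.35), against 48.9% of all genes. Without spleen vehicle library 04 or lymph node SAH library 03, 3 of them rose and 22 had a positive change, and without any of the others 5 to 12 rose. The median was 0.16 without spleen vehicle library 04 and 0.50 without lymph node vehicle library 01. Fosl2, an AP-1 subunit (chromosome 5, 32135801 to 32157842, plus strand), was at 580.1, 609, 552.5 and 606.5 CPM in SAH, against 356 and 359 CPM in vehicle. It rose 1.64-fold (95% interval 1.501 to 1.79, adjusted p = 0.000789). Its 4 SAH values lay close to each other and its 2 vehicle values nearly coincided, with a wide gap between. All 3 NR4A orphan nuclear receptors rose: Nr4a3 1.58-fold (95% interval 1.40 to 1.78, adjusted p = 0.00496), Nr4a2 1.47-fold and Nr4a1 1.34-fold. Nr4a2 was at 57.55, 56.4, 49.5 and 53.45 CPM in SAH, against 39.0 and 34.3 CPM in vehicle. Nr4a1 was at 748, 787, 551 and 491 CPM in SAH, against 530.1 and 419 CPM in vehicle, where lymph node SAH library 03 lay below the spleen vehicle library. Klf4, a quiescence-associated Kruppel-like factor, rose 1.598-fold, Csrnp2, a cysteine and serine rich nuclear protein, 1.59-fold, Crem, a cAMP-responsive factor, 1.53-fold, and Maff, a small MAF protein, 1.29-fold. Some canonical early genes did not pass. Fos was at 349.6, 408.5, 255 and 259 CPM in SAH, against 196 and 233 CPM in vehicle (log2 change 0.54, 95% interval 0.23 to 0.86, adjusted p = 0.115). Egr1 had a log2 change of 0.43 (adjusted p = 0.119) and Ier2 one of 0.50 (adjusted p = 0.0709).

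The cAMP-response element TGACGTCA, which reads the same on both strands, stood in 9.59% of the windows of higher genes (7 of 73), in 0 of 14 windows of lower genes and in 3.99% of all windows. It is shown in capitals for the kinase gene Plk2 and for Ppp1r15a, both of which rose.
Ppp1r15a (GRCm38.p6 chr7:45526269-45526388, minus strand): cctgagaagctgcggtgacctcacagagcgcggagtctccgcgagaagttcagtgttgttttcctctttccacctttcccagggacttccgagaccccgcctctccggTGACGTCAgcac
Plk2 (GRCm38.p6 chr13:110394924-110395043, plus strand): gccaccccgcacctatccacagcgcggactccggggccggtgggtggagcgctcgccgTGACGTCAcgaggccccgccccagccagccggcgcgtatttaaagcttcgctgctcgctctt
The forkhead motif TGTTTAC, sought on both strands, was in 4.11% of windows of higher genes (3 of 73), in 0 of 14 of lower genes and in 3.05% of all windows, and the AP-1 motif TGANTCA in 2.74% of higher (2 of 73), 21.4% of lower (3 of 14) and 5.57% of all windows.

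A few inhibitors that follow receptor and cytokine signals rose. Of 24 genes of the T cell receptor feedback list, 2 rose and 0 fell (0.88% and 0.162% of all genes), the MAP kinase phosphatases Dusp10 (1.38-fold) and Dusp5 (1.26-fold), and the list median was 0.10. Dusp10 was abundant, at 1232, 1344, 1200 and 1286 CPM in SAH, against 1032 and 815 CPM in vehicle. The activation marker Cd69 was at 674, 739, 567 and 583 CPM in SAH, against 721 and 661 CPM in vehicle (log2 change -0.12, 95% interval -0.25 to 0.02, adjusted p = 0.445), so its SAH and vehicle values overlapped. Of 23 STAT5 and cytokine feedback genes, 2 rose and 0 fell (median 0.07). Socs3, an inhibitor of cytokine receptor signalling, was at 143, 123, 103 and 117.5 CPM in SAH, against 82.2 and 72.3 CPM in vehicle. It rose 1.56-fold (95% interval 1.39 to 1.75, adjusted p = 0.0052), and the kinase gene Pim3 rose 1.31-fold. The anti-proliferative pair Tob1 and Tob2 rose 1.37-fold and 1.34-fold, the polo-like kinases Plk2 and Plk3 1.34-fold and 1.33-fold, and Sertad1, a transcriptional coregulator, 1.56-fold. Of 16 glucocorticoid-induced genes, 2 rose and 0 fell (median 0.17). They were Errfi1, an inhibitor of ERBB receptors (1.41-fold), and the kinase gene Sgk1 (1.46-fold), while the chemokine receptor Cxcr4 had a log2 change of 0.41 (adjusted p = 0.051). Without lymph node SAH library 02, 4 genes of the receptor feedback list rose and 2 fell, and 4 rose in each of the STAT5 and glucocorticoid lists. None of the receptor feedback list passed without lymph node SAH library 03 or spleen SAH library 06, and none of either other list without lymph node SAH library 03 or spleen vehicle library 04. None of 18 NF-kB genes passed with limma (3 had an unadjusted p below 0.05, median 0.02), though 1 rose without lymph node SAH library 02. The adhesion gene Icam1 was nearest, at a log2 change of 0.31 (adjusted p = 0.051).

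Some genes of lipid synthesis and of cholesterol export rose. Of 28 SREBP target genes of cholesterol and fatty acid synthesis, 4 rose, 0 fell and 24 did not pass, and 27 had a positive change (median 0.19), against 48.9% of all genes. Fasn, fatty acid synthase, was at 158, 177.5, 162 and 161 CPM in SAH, against 113 and 121.5 CPM in vehicle. It rose 1.40-fold (95% interval 1.27 to 1.54, adjusted p = 0.00974). All 4 SAH values of Fasn were above both vehicle values. Insig1, which holds SREBP back, rose 1.39-fold, and Scd2, a fatty acid desaturase, 1.36-fold. Cyp51a1, a step of sterol synthesis, was at a log2 change of 0.47 (adjusted p = 0.0524), and Sqle at 0.37 (adjusted p = 0.108). Outside the list, Acsl3, an acyl-CoA synthetase, and Aacs, acetoacetyl-CoA synthetase, rose 1.45-fold and 1.39-fold. Of 7 LXR targets 2 rose and 0 fell (median 0.15), the cholesterol exporter genes Abca1 (1.32-fold) and Abcg1 (1.27-fold). Neither passed without lymph node vehicle library 01, lymph node SAH library 03 or spleen vehicle library 04. Without spleen vehicle library 04 or lymph node SAH library 03, 0 of the 28 SREBP targets passed, without lymph node vehicle library 01 1 did, and 27 stayed positive in each case.

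Vegfa, the angiogenic growth factor (chromosome 17, 46016993 to 46032369, minus strand), was at 9.71, 10.6, 14.2 and 15.75 CPM in SAH, against 4.30 and 6.88 CPM in vehicle. It rose 2.065-fold (95% interval 1.81 to 2.36, adjusted p = 0.000789). Each SAH library was above both vehicle libraries, and lymph node exceeded spleen under either treatment. Of 26 glycolysis and hypoxia genes, 2 rose, 0 fell and 24 did not pass (median 0.09). Besides Vegfa, the glucose transporter gene Slc2a1 was at 66.0, 68.5, 60.3 and 60.8 CPM in SAH, against 51.6 and 48.9 CPM in vehicle. It rose 1.265-fold (95% interval 1.16 to 1.38, adjusted p = 0.0227). The lactate and pyruvate transporter Slc16a1 had a log2 change of 0.36 (adjusted p = 0.0582).

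Most ribosomal protein genes had a small positive change, which with 1 exception did not pass. Of 43 large subunit genes 1 rose, Rpl38, by 1.245-fold, 42 had a positive change, and their median was 0.16. Of 33 small subunit genes 0 passed (limma; 23 had an unadjusted p below 0.05), 33 had a positive change and the median was 0.18, where 48.9% of all genes had a positive change. Their summed level was 33490, 33140, 35180 and 31560 CPM in SAH and 31240 and 27870 CPM in vehicle, with the lymph node vehicle library lowest and the spleen vehicle library just under the nearest SAH library. With equal totals the large and small subunit medians were 0.11 and 0.13 (against -0.05 for all genes), and without lymph node vehicle library 01 they were 0.08 and 0.096. After quantile normalization they were 0.08 and 0.07. Of 28 ribosome biogenesis genes 1 rose, the box C/D snoRNP gene Nop56, with a list median of 0.11. Nop56 was at 303, 328, 339 and 317 CPM in SAH, against 233.5 and 262 CPM in vehicle, a rise of 1.30-fold. Several single genes also rose: Pnp, purine nucleoside phosphorylase, 1.30-fold, Impdh2, of guanine nucleotide synthesis, 1.21-fold, and Amd1, adenosylmethionine decarboxylase, 1.34-fold, with its near-identical copy Amd2 at 1.34-fold, so that reads of this pair may be split. Hexim1 and Mepce, both of the 7SK complex, rose 1.22-fold and 1.22-fold, and the bromodomain gene Brd2 1.27-fold. Of 27 cell cycle genes 1 rose, the replication clamp Pcna (1.23-fold), and the list median was 0.01.

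Of the 103 called genes, 52 belonged to none of the lists. The largest change among them was that of Drc1, of the dynein regulatory complex of cilia, which was at 3.36, 6.23, 3.23 and 2.86 CPM in SAH, against 1.56 and 0.9335 CPM in vehicle. It rose 2.14-fold (95% interval 1.62 to 2.83, adjusted p = 0.025), at a low level and highest in spleen SAH library 06. Ciart, a circadian repressor, rose 1.52-fold, Tnfrsf10b, the mouse TRAIL receptor, 1.44-fold, Bambi, a TGF-beta pseudoreceptor, 1.42-fold, and Ctsl, the protease cathepsin L, 1.40-fold. Gla, alpha-galactosidase A, rose 1.36-fold, the cytokine receptors Tnfrsf1b and Il21r 1.24-fold and 1.204-fold, Axin2, a feedback inhibitor of Wnt signalling, 1.24-fold, and the deacetylase gene Sirt1 1.22-fold. The other 15 higher genes, Rnd1, Coq10b, Klf16, Phf13, Dtl, Clic4, Cdr2, Slbp, Kpna2, Jmjd6, Traf4, Siah2, Tiparp, Ppan and Topors, rose 1.19-fold to 1.44-fold.

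Among the 16 lower genes were 2 genes of the carnitine route that passes long-chain fatty acids into mitochondria. Cpt1a (chromosome 19, 3322334 to 3385733, plus strand), the rate-limiting step of that import, was at 124, 117, 102 and 96.9 CPM in SAH, against 184 and 169 CPM in vehicle. It was 1.602-fold lower (95% interval 1.46 to 1.75, adjusted p = 0.000951). Slc25a20, the carnitine-acylcarnitine carrier (chromosome 9, 108662088 to 108684641, plus strand), was at 25.6, 25.0, 25.5 and 24.4 CPM in SAH, against 37.1 and 31.9 CPM in vehicle. It was 1.36-fold lower (95% interval 1.22 to 1.51, adjusted p = 0.0192). SAH and vehicle values did not overlap for either gene, and the 4 SAH values of Slc25a20 nearly coincided. The call of Slc25a20 was lost without lymph node vehicle library 01, lymph node SAH library 03, spleen vehicle library 04 or spleen SAH library 06. Of 25 fatty acid oxidation genes, 0 rose, 2 fell and 23 did not pass, with a median of -0.03 (0.037 without spleen vehicle library 04). Cpt2, the inner membrane partner of Cpt1a (log2 change -0.20, adjusted p = 0.414), did not pass.

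Gimap7, of the GTPases of immunity-associated proteins that support lymphocyte survival (chromosome 6, 48718621 to 48724636, plus strand), fell most. It was at 49.5, 46.6, 32.3 and 28.7 CPM in SAH, against 85.9 and 54.5 CPM in vehicle. It was 1.77-fold lower (95% interval 1.599 to 1.96, adjusted p = 0.000789). Each organ's SAH values were well under its vehicle value, although the vehicle libraries themselves differed by organ. Of 8 GIMAP genes, 0 rose, 1 fell and 7 did not pass, 7 had a negative change, and the median was -0.15. Gimap4 (log2 change -0.28, adjusted p = 0.0631) and Gimap8 (log2 change -0.22, adjusted p = 0.104) were next. Gimap4 was at 768, 709.5, 668 and 631 CPM in SAH, against 944 and 748 CPM in vehicle, so that its SAH values overlapped vehicle across organs. With equal totals, after quantile normalization or without lymph node SAH library 02, 2 of the 8 were lower.

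Slc15a2, a transporter of di- and tripeptides (chromosome 16, 36750177 to 36784962, minus strand), was at 35.9, 33.8, 25.8 and 26.3 CPM in SAH, against 49.65 and 49.6 CPM in vehicle. It was 1.63-fold lower (95% interval 1.42 to 1.86, adjusted p = 0.00734). Its vehicle values were the same in both organs, and lymph node SAH values lay below those of spleen. Of 15 ectoenzyme and purine genes, 1 rose (Pnp) and 2 fell (median -0.02). Art2b, a surface ADP-ribosyltransferase of T cells, was at 15.1, 16.2, 10.7 and 8.58 CPM in SAH, against 27.1 and 15.1 CPM in vehicle (1.601-fold lower). Adk, adenosine kinase, was at 42.1, 36.6, 33.65 and 33.0 CPM in SAH, against 59.05 and 40.5 CPM in vehicle (1.34-fold lower). Art2a, a close copy of Art2b, had a log2 change of -0.51 (adjusted p = 0.0748), and P2rx7, the ATP-gated channel that ART2 enzymes modify, one of -0.41 (adjusted p = 0.0666). Reads of the Art2 copies may be split. Cdk5rap1, which modifies mitochondrial tRNAs, was at 13.1, 13.3, 14.5 and 12.6 CPM in SAH, against 21.6 and 21.8 CPM in vehicle. It was 1.58-fold lower (95% interval 1.40 to 1.78, adjusted p = 0.00496). Of 25 BCL2 family and caspase genes 1 fell, Casp9, the initiator caspase of the mitochondrial pathway, by 1.33-fold (list median -0.03). Other lower genes were Zfp617 (1.41-fold), Slc33a1, an acetyl-CoA transporter (1.31-fold), Zfp788 (1.251-fold), the lysosomal gene Tmem106b (1.23-fold), Gm14326 (1.23-fold), Ttc14 (1.201-fold) and Ifi203, of the interferon-inducible PYHIN family (1.196-fold).

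Lists of T cell identity held no called gene. Foxp3 was at 21.1, 22.6, 23.5 and 24.9 CPM in SAH, against 19.6 and 21.8 CPM in vehicle (log2 change 0.14, 95% interval -0.01 to 0.29, adjusted p = 0.376). Its SAH and vehicle values overlapped across organs. Within each organ its SAH values lay above the vehicle value, as they did for 16.6% of all genes. Of 21 measured Treg signature genes 0 passed (limma; 2 had an unadjusted p below 0.05, median 0.05). Il2ra, the CD25 gene, was at 4.66, 6.94, 3.98 and 3.85 CPM in SAH, against 6.90 and 4.80 CPM in vehicle (log2 change -0.24, 95% interval -0.53 to 0.06, adjusted p = 0.476). The inhibitory receptor gene Ctla4 had a log2 change of -0.08 (adjusted p = 0.726) and the Helios gene Ikzf2 one of -0.06 (adjusted p = 0.92). Of 16 genes that FOXP3 is known to repress in Treg 0 passed (3 had an unadjusted p below 0.05, median 0.03). Ifng, the interferon gamma gene, was at 28.7, 23.9, 4.29 and 3.47 CPM in SAH, against 30.4 and 3.07 CPM in vehicle (log2 change 0.03, 95% interval -0.25 to 0.31, adjusted p = 0.957), and Il7r, the interleukin 7 receptor, had a log2 change of -0.01 (adjusted p = 0.961). Of 19 naive T cell genes 0 passed (3 with an unadjusted p below 0.05, median -0.01), and of 19 T cell receptor complex genes 0 passed (1 with an unadjusted p below 0.05, median 0.02). Without lymph node SAH library 02, 1 gene of the Treg signature, 2 of the FOXP3-repressed, 1 of the naive and 1 of the receptor complex list passed.

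Of 29 memory and effector genes 0 passed (6 with an unadjusted p below 0.05, median -0.04, or -0.27 without lymph node vehicle library 01), and 3 fell without lymph node SAH library 02. The nearest were the adhesion receptor Cd44, at 80.9, 72.1, 64.4 and 60.7 CPM in SAH, against 103 and 73.3 CPM in vehicle (log2 change -0.33, 95% interval -0.48 to -0.17, adjusted p = 0.0599), and the chemokine receptor Cxcr6. Cxcr6 was at 19.1, 23.9, 2.89 and 2.63 CPM in SAH, against 38.4 and 3.49 CPM in vehicle (log2 change -0.54, 95% interval -0.83 to -0.24, adjusted p = 0.0967). In spleen, markers of CD8 and natural killer cells moved beside them. Their summed level, over 11 of 17 markers, was 161, 178, 117 and 111 CPM in SAH and 213 and 98.2 CPM in vehicle, and 7 of the 11 had a negative change. Klrc1, of natural killer cells, was at 2.28, 2.44, 0.07115 and 0 CPM in SAH, against 7.11 and 0 CPM in vehicle. The spleen vehicle library was the highest of the 6 in this sum, as it was for Cd44, Cxcr6, Gimap7, Gimap4, Art2b and Adk. It was also the highest for Cpt1a, Slc25a20, Slc15a2, Casp9, Zfp617, Slc33a1 and Tmem106b, with the lymph node vehicle library next. The part of other cells in these values was not tested. Jchain, a plasma cell gene, was at 36.7, 38.9, 0.308 and 0.281 CPM in SAH, against 102.5 and 0.373 CPM in vehicle (log2 change -0.75, 95% interval -1.25 to -0.25, adjusted p = 0.164). Of 34 interferon response genes 0 passed (2 with an unadjusted p below 0.05, median -0.02), of 36 proteasome subunits 0 (0 with an unadjusted p below 0.05, median -0.02), and of 13 mitochondrially encoded genes 0 (0 with an unadjusted p below 0.05, median 0.04).

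**Figure D3:**
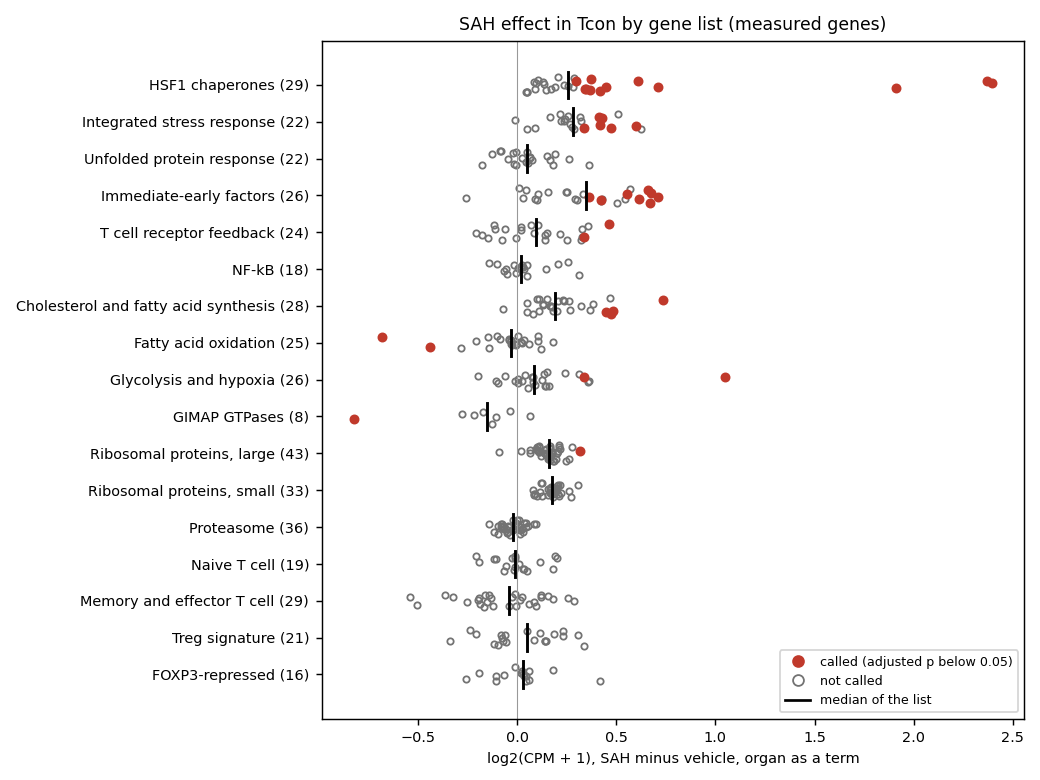
Log2 change of SAH against vehicle, with organ as a term, for each measured gene of 17 lists (number of genes in parentheses), with called genes filled and the median of each list as a bar. The 29 genes of the HSF1 chaperone list all lie right of 0 and 12 are called, whereas no gene of the naive T cell, Treg signature or FOXP3-repressed lists is.

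Whether the change differed between organs was tested by an interaction term. The 2 residual degrees of freedom of that model came from the SAH libraries alone, since vehicle had 1 library per organ. Of 9886 genes 0 passed (0%; limma, smallest adjusted p = 0.311), and 504 had an unadjusted p below 0.05. Without lymph node SAH library 03 12 genes passed, and without spleen SAH library 05 15 did, each on fewer libraries. The 87 higher genes had a median log2 change of 0.43 in spleen and 0.40 in lymph node, and 46 of them were larger in spleen. For the 16 lower genes the medians were -0.47 in spleen and -0.36 in lymph node. Of the 103, 10 had an unadjusted p below 0.05 for the difference. Sgk1 changed by 0.80 in spleen and 0.29 in lymph node (difference 0.52, 95% interval 0.19 to 0.84, adjusted p = 0.913). Hspa1l changed by 2.38 in spleen and 1.44 in lymph node (difference 0.94, 95% interval 0.18 to 1.70, adjusted p = 0.913). Larger changes in spleen were also measured for Hspa1b, Hspa2, Sertad1 and Slc38a2, and larger changes in lymph node for Crem, Got1, Dusp10 and Slc15a2. Slc15a2 changed by -0.50 in spleen and -0.90 in lymph node (difference 0.41, 95% interval 0.12 to 0.69, adjusted p = 0.913). Hspa1a changed by 2.80 in spleen and 1.99 in lymph node (difference 0.81, 95% interval -0.05 to 1.68, adjusted p = 0.913). Fos, which did not pass in Tcon as a whole, changed by 0.94 in spleen and 0.14 in lymph node (difference 0.80, 95% interval 0.51 to 1.10, adjusted p = 0.517). The 26 immediate-early genes had a median of 0.50 in spleen and 0.16 in lymph node. For both ribosomal lists the order was the other way, with spleen medians of 0.08 (large subunit) and 0.10 (small subunit), and lymph node medians of 0.24 (large) and 0.26 (small). These differences between lists were not tested.

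**Figure D4:**
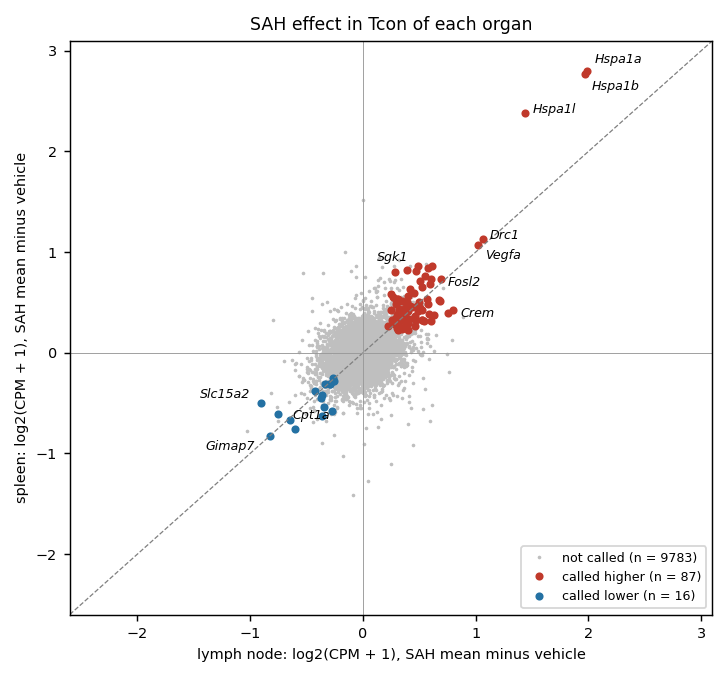
Log2(CPM + 1) of the SAH mean minus the vehicle library in spleen (vertical) and in lymph node (horizontal) for 9886 genes, with 87 called higher genes in red and 16 called lower genes in blue. Vegfa, Fosl2 and Gimap7 lie on the dashed line of equal change, while Hspa1a, Hspa1b and Hspa1l lie above it.

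The same treatment contrast in Treg was set beside that of Tcon in 1 model of 12 libraries. In Treg, 21 of 10405 genes passed (0.202%), and 11 of the 103 Tcon genes were among them: Hspa1a, Hspa1b, Hspa1l, Hsph1, Dnajb1 and Abca1 higher, and Art2b, Slc15a2, Cdk5rap1, Cpt1a and Slc25a20 lower. Of 9784 genes in both tables, 0 passed the test of a difference between the cell types (0%; limma, smallest adjusted p = 0.0615), and 453 had an unadjusted p below 0.05. This count turns on whether library numbers pair Tcon with Treg, which the labels do not say. With library number as a replicate block, 76 genes passed, with adjusted p = 0.000776 for Tob2, 0.00147 for Nr4a3, 0.00147 for Nr4a1 and 0.00441 for Vegfa. The 87 higher genes had a median log2 change of 0.42 in Tcon and 0.13 in Treg, where 72 of them were positive, and the 16 lower genes one of -0.42 in Tcon and -0.19 in Treg, where 16 were negative. These genes were chosen on the Tcon libraries, which favours a larger Tcon change. The smallest p among them without the block belonged to Tob2, with log2 changes of 0.42 in Tcon and -0.06 in Treg (difference 0.48, 95% interval 0.32 to 0.64, adjusted p = 0.0615), and Vegfa, with 1.05 in Tcon and 0.08 in Treg (difference 0.96, 95% interval 0.64 to 1.29, adjusted p = 0.0615). The nuclear receptor Nr4a3 changed by 0.66 in Tcon and -0.03 in Treg (difference 0.69, 95% interval 0.44 to 0.95, adjusted p = 0.1). Nr4a1 changed by 0.42 in Tcon and -0.12 in Treg (difference 0.55, 95% interval 0.34 to 0.75, adjusted p = 0.1). For Cpt1a the log2 change was -0.68 in Tcon and -0.67 in Treg (difference -0.01, 95% interval -0.17 to 0.14, adjusted p = 1). That of Cdk5rap1 was -0.66 in Tcon and -0.67 in Treg (difference 0.01, 95% interval -0.22 to 0.24, adjusted p = 1) and that of Slc15a2 -0.70 in Tcon and -0.75 in Treg (difference 0.05, 95% interval -0.18 to 0.28, adjusted p = 1). For Hspa1a it was 2.40 in Tcon and 1.77 in Treg (difference 0.62, 95% interval 0.01 to 1.24, adjusted p = 1). Ribosomal protein genes had a median of 0.18 (small subunit) in Tcon and 0.01 in Treg, and immediate-early factors one of 0.35 in Tcon and 0.08 in Treg, differences between lists that were not tested.

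**Figure D5:**
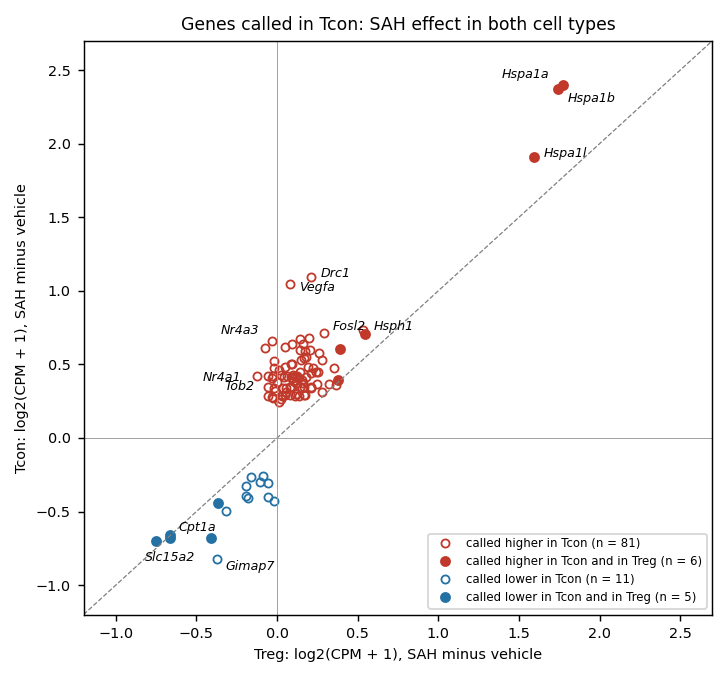
Log2 change of SAH against vehicle in Tcon (vertical) and in Treg (horizontal) for the 103 genes called in Tcon, with genes also called in Treg filled (6 higher and 5 lower). Vegfa, Nr4a1, Nr4a3 and Tob2 lie near 0 on the Treg axis, and Cpt1a and Slc15a2 lie near the dashed line of equal change.

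The authors' deposited table called more genes in the same libraries, 215 higher (2.17%) and 102 lower (1.03%). All 103 genes called here were among the calls of the authors' deposited table. The other 214 calls of the authors' deposited table, 128 higher and 86 lower, had the same sign here, at adjusted p-values (limma) of 0.051 to 0.335, of which 137 were under 0.1. In the authors' deposited table Ddit4 (log2 change 0.63, false discovery rate 0.0175), Slc16a1 (log2 change 0.37, false discovery rate 0.000927), Cyp51a1 (log2 change 0.49, false discovery rate 0.000654), Herpud1 (log2 change 0.37, false discovery rate 0.000646) and Cxcr4 (log2 change 0.42, false discovery rate 0.000726) were called higher. Gimap4 (log2 change -0.28, false discovery rate 0.00766), Cd44 (log2 change -0.33, false discovery rate 0.0012) and P2rx7 (log2 change -0.41, false discovery rate 0.00187) were called lower in the authors' deposited table. Markers of other cells were also called lower there, among them Jchain (log2 change -1.37, false discovery rate 5.27e-30), Klrc1 (log2 change -1.515, false discovery rate 4.32e-08) and Klrb1c (log2 change -0.73, false discovery rate 0.0195). So was Cxcr6 (log2 change -0.65, false discovery rate 0.000689).

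Higher genes were shorter at the median than all genes. Of the 87, 86 matched the GENCODE annotation of mm10, with a median gene length of 13260 bases and 6 exons in the longest transcript, against 22320 bases and 7 exons for the 16 lower genes and 24140 bases and 8 exons for 9458 tested genes that matched. Genes of fewer than 10 kb made up 37.2% of higher, 12.5% of lower and 23.0% of all matched genes. Across all 9458 genes the log2 change was nearly unrelated to gene length (Spearman's rho 0.01, with genes that are not independent replicates).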

How the data were processed

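RNA of sorted Tcon and Treg was made with Trizol into stranded mRNA libraries, per the labels' protocols, and the submitters' processing notes name Bowtie, TopHat, edgeR and the build mm10 without versions or order. Which program counted the reads, and on which annotation, is not given in the sources used here. Each deposited table lists genes with at least about 1 CPM in some libraries, and its signal per library, called CPM in the file headers, carries a scaling factor of each library, since column totals differ. The deposited tables also hold the authors' log2 fold changes, likelihood ratio score, call score, p-values and false discovery rates per gene, used only where named.

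From these values log2(CPM + 1) was fitted with limma 3.58.1 in R 4.3.3 (empirical Bayes with an intensity trend), with organ and treatment as terms (3 residual degrees of freedom), an organ by treatment model (2 degrees of freedom), and a cell type by treatment model over 12 libraries. A pseudocount of 1 understates the change of low genes. The filter of at least 1 CPM in at least 2 libraries removed 0 genes. Adjusted p-values are Benjamini-Hochberg over all genes of a table, and a gene was called below 0.05. Folds are 2 to the power of the log2 change. The scripts were tested on simulated data.

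The comparison, the gene lists and the tests were chosen with earlier results of these data known, and members of each list were taken from textbook knowledge. Any called gene could be named, and of each list also the 4 other genes with the smallest p, with Lef1 added as an identity marker. Library numbers are shared by Tcon and Treg. Deviations from the group mean correlated at 0.44 for libraries 02 and 03 and 0.56 for libraries 05 and 06, which are 2 independent values, so pairing was not established. Promoters came from RefSeq (GRCm38.p6) and gene positions and lengths from GENCODE (mm10). Results of some genes are not reported here.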

Additional observations from a re-analysis of the deposited data

How the results depend on the processing

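The 103 called genes kept their direction in every setting, except that 1 of them was not fitted at a mean of at least 5 CPM, where the other 102 kept theirs. Only equal totals and quantile normalization could have turned a sign, since each SAH library lay on the called side of its organ's vehicle library. Of 9886 genes, the number called in Tcon was 11 without the intensity trend, 44 after quantile normalization, 76 with equal totals (48 higher and 28 lower), 71 with a pseudocount of 5 and 1 without the organ term. With 1 library left out it was 11 to 226, and the fit then rests on 5 libraries. The difference between organs was called for 1 gene with a pseudocount of 5 and for 0 to 15 with 1 SAH library left out (12 without library 03 and 15 without library 05, where a lone SAH library is assumed to vary like the others). The difference between Tcon and Treg was called for 3 genes with a pseudocount of 5 and 1 without the trend. With library number as a replicate block it was 76 genes (62 higher and 14 lower), against 0 without the block; the labels do not say that a number marks a mouse. The cause was not tested for any of these.

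Uncalled genes near 0 changed sign in some settings. Ifng was at -0.022 with a pseudocount of 5 and -0.013 with equal totals, Gata1 at -0.018 with equal totals, and Cd28 at -0.012 and mt-Nd2 at -0.058 after quantile normalization. With 1 library left out, the log2 change was -0.10 to 0.38 for Cd22, -0.21 to 0.26 for Ifng, -0.25 to 0.11 for Ikzf2, -0.14 to 0.27 for Xbp1, -0.097 to 0.12 for Gata1, -0.088 to 0.062 for Il7r, -0.018 to 0.59 for Cd68, -0.15 to 0.0015 for Ctla4, -0.91 to 0.0084 for Klrb1c, -1.27 to 0.050 for Klrc1, -0.092 to 0.38 for Nfkbiz, -0.14 to 0.041 for Smpdl3a, -0.053 to 0.77 for Ca2 and -0.11 to 1.52 for Slc4a1.

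Each organ had 1 vehicle library, so the spread behind the Tcon test comes from the pairs of SAH libraries and from how far the change differed between organs. The tests with edgeR and DESeq2 were not run here, although low values lay within 0.1 of whole multiples of 1 step in each library (100%), from which the depths were taken. Genes near or below 1 CPM, such as Drc1 in vehicle, Klrc1 and Cd79a, rest on far fewer reads than the others named.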
